A study of Mus musculus with 6 samples.

Results

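The genes examined were the ligands and receptors of the tumor necrosis factor (TNF) superfamily in mouse cardiac fibroblasts treated with vehicle or TGFβ. Members were taken by gene symbol, as the numbered *Tnfsf* and *Tnfrsf* genes plus *Tnf*, *Lta*, *Ltb*, *Ltbr*, *Fas*, *Cd40*, *Ngfr*, *Cd27*, *Eda*, *Edar* and *Eda2r*. This gave 41 of the 25140 genes listed, 15 of them ligands and 26 receptors. *Fasl*, *Cd40lg* and *Cd70*, also sought by name, have no row in the table used here. Every gene listed had at least 1 count, and numbered members without a row are not named.

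Polyadenylated RNA was sequenced in 6 libraries of primary fibroblasts isolated from the adult C57BL/6 heart and used at passage 1. All cells were grown in DMEM with 25 mM glucose and 10% FBS, moved to 1% FBS before confluence and, 16 h later by the sample labels, kept for 24 h with vehicle (3 libraries) or with 10 ng/ml TGFβ (3 libraries), the cytokine that drives fibroblasts toward contractile, matrix-secreting myofibroblasts. The comparison asks which transcripts TGFβ changes in these cells. The methods and labels call the cells cardiac fibroblasts, whereas the results of the paper call them MEFs, and the methods give a longer time in low serum before treatment than the labels do.

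The vehicle libraries held 31072338, 29296570 and 29331999 counts and the TGFβ libraries 27851677, 28894151 and 28641986, and values given library by library follow that order. The table's columns name the group but no replicate number. All 8 fibroblast markers passed the filter, with summed levels of 34633 to 39766 CPM with vehicle and 38752 to 42293 CPM with TGFβ (CPM, counts relative to TMM-scaled library size), and 6 of the 8 were lower with TGFβ. These sums were mostly *Col1a1* and *Col1a2*, the fibroblast markers that did not pass the threshold. Leukocyte markers summed to 251 to 362 CPM with vehicle and 215 to 322 CPM with TGFβ, mostly *Lyz2*, and 1 of the 7 that passed the filter, *Cd14*, was lower. The B cell marker *Cd79a* had no more than 1 count in any library. Endothelial markers summed to 446 to 692 and 409 to 566 CPM, with none of 7 past the threshold. Smooth muscle and pericyte markers summed to 65.7 to 88.8 CPM with vehicle and 106 to 151 CPM with TGFβ. Of the 6, *Cnn1* (means of 10.6 and 38.7 CPM) and *Cspg4* (19.5 and 53.3 CPM) were higher. The other 4 did not pass the threshold. Cardiomyocyte markers summed to 38.6 to 59.7 CPM with vehicle and 27.4 to 40.6 CPM with TGFβ, mostly *Tnnt2* (*Myh6* was at 0.254 CPM with vehicle). Mesothelium markers summed to 23.7 to 77.0 CPM with vehicle and 14.6 to 34.3 CPM with TGFβ, mostly *Upk3b*. No marker of cardiomyocytes or mesothelium passed the threshold. The vehicle library of 29331999 counts and the TGFβ library of 28641986 counts had the highest leukocyte and endothelial sums of their groups. In bulk RNA, fewer cells of a type and less RNA per cell cannot be told apart.

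TNF superfamily ligands are mostly trimeric membrane proteins that can be released by proteases, and their receptors carry cysteine-rich repeats outside the cell. Receptors with a death domain can recruit caspase-activating complexes, other receptors bind TRAF adaptors and activate NF-κB, and decoy receptors bind ligand without passing on the full signal. In the heart the system is known for inflammation, cell survival and fibrosis, and fibroblasts are among the cells that receive these signals.

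Of the 41 members, 29 had enough counts to be tested and 12 did not. Of those tested, 18 passed an adjusted p of 0.05 (edgeR quasi-likelihood test with Benjamini-Hochberg adjustment over 14334 genes), where 40.7% of all genes tested did so. There were 9 members higher with TGFβ, against a background of 20.5%, and 9 lower, against a background of 20.1%. Among the 18 receptors tested, 8 were higher, 3 lower and 7 not past the threshold, with a median log2 fold change of 0.26. Among the 11 ligands tested, 1 was higher, 6 lower and 4 not past the threshold, with a median of -0.68, beside -0.0013 over all genes tested. The ligands *Tnfsf8*, *Tnfsf11*, *Tnfsf13* and *Tnfsf15* met the count filter by their vehicle libraries alone but not by their TGFβ libraries alone. Of these, *Tnfsf8* and *Tnfsf11* could be tested only because they were higher with vehicle. Their fall was thus a condition of being tested, and the 6 lower ligands and the median of -0.68 include them. In 19 of the 29 members tested the groups did not overlap, 8 with all TGFβ libraries above and 11 below. Of all genes tested, 53.3% had groups that did not overlap. A change beyond 1 on the log2 scale together with the threshold was met by 8 members, where 6.77% of all genes tested met it. *Tnfsf8* and *Tnfsf11* are among these 8. No test of the family as a whole was made.

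**Figure D1:**
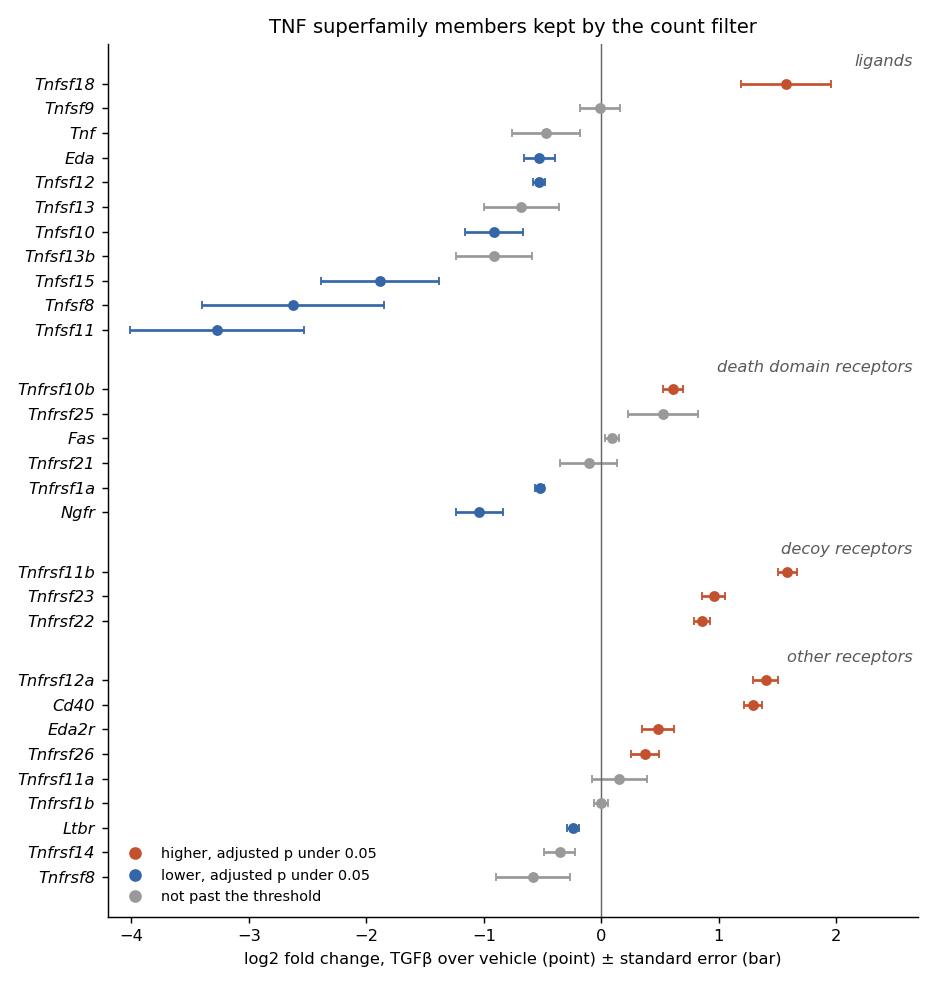
Log2 fold change of TGFβ over vehicle (horizontal axis) for the 29 members tested, grouped by role, with points for estimates and bars for standard errors, and colors for members higher, lower or not past the threshold. All 3 decoy receptors lie to the right of 0 and 6 of 11 ligands are marked as lower, from *Eda* at -0.53 to *Tnfsf11* at -3.27. Of the lower ligands, *Tnfsf8*, *Tnfsf11* and *Tnfsf15* met the count filter by their vehicle libraries alone but not by their TGFβ libraries alone.

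*Tnfrsf11b* rose with TGFβ in all libraries. It encodes osteoprotegerin, a secreted decoy that binds RANKL and TRAIL, and lies on the minus strand of chromosome 15 (54250619 to 54278484, GRCm38, also called mm10). Its level was 61.6, 51.9 and 54.8 CPM in the vehicle libraries and 179.7, 154 and 171 CPM in the TGFβ libraries. Every TGFβ library was far above every vehicle library. The mean went from 56.1 ± 4.95 (SD, n = 3) to 168 ± 12.8 CPM (SD, n = 3), a log2 fold change of 1.58 (standard error 0.08, edgeR adjusted p = 1e-05). Its main ligand, RANKL (*Tnfsf11*), moved the other way. *Tnfsf11* had 25, 12 and 40 counts with vehicle and 0, 2 and 5 with TGFβ, without overlap. It passed the count filter only through its vehicle libraries, so it could be tested only because it was higher there. The log2 fold change was -3.27 (standard error 0.74, edgeR adjusted p = 0.00972), resting on 77 counts against 7, and it ranged from -4.40 without the TGFβ library of 28641986 counts to -2.73 without that of 27851677 counts. *Tnfrsf11a*, which encodes the signaling receptor RANK, had 27, 24 and 36 counts with vehicle and 33, 24 and 32 with TGFβ. The groups overlapped and the log2 fold change was 0.16 (standard error 0.24, edgeR adjusted p = 0.638). The ratio of *Tnfrsf11b* to *Tnfsf11* counts, a pair chosen after its values were seen, was 78.4, 128 and 40.9 with vehicle. With TGFβ it was 2156 and 973 in the libraries that held any *Tnfsf11* count.

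The remaining decoy receptors are *Tnfrsf22* and *Tnfrsf23*, mouse membrane receptors that bind TRAIL and lack a death domain. *Tnfrsf23* was at 47.0, 41.6 and 52.2 CPM with vehicle and 85.5, 85.8 and 102 CPM with TGFβ, a log2 fold change of 0.96 (standard error 0.10, edgeR adjusted p = 0.000251). *Tnfrsf22* had 352, 335 and 367 counts with vehicle and 547, 586 and 620 with TGFβ, a log2 fold change of 0.86 (standard error 0.07, edgeR adjusted p = 6.85e-05). Neither gene had overlapping groups. Both are uncertain as separate values, since 21.2% of the 75-base windows of *Tnfrsf22* and 16.1% of those of *Tnfrsf23* occur in transcripts of other genes, chiefly in each other. The ratio of *Tnfrsf22* to *Tnfrsf23* counts was 0.235, 0.272 and 0.236 with vehicle and 0.234, 0.245 and 0.213 with TGFβ, so the groups overlapped in this ratio.

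*Tnfrsf10b*, the TRAIL receptor of the mouse that carries a death domain, was also higher. It was at 55.5, 51.4 and 46.2 CPM with vehicle and 83.3, 79.8 and 70.5 CPM with TGFβ, without overlap. The log2 fold change was 0.61 (standard error 0.08, edgeR adjusted p = 0.000948). TRAIL itself, *Tnfsf10*, had 65, 79 and 89 counts with vehicle and 31, 31 and 52 with TGFβ. All TGFβ libraries were below all vehicle libraries, and the log2 fold change was -0.91 (standard error 0.24, edgeR adjusted p = 0.0195). Leaving out either of the vehicle libraries of 29296570 and 29331999 counts, or either of the TGFβ libraries of 27851677 and 28894151 counts, ended the call (edgeR adjusted p from 0.0573 to 0.0738). Thus the TRAIL receptors were higher, with and without the death domain, and the ligand lower.

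*Tnfrsf12a* encodes Fn14, the receptor of the cytokine TWEAK, and lies on the minus strand of chromosome 17 (23675445 to 23677468, GRCm38). It was at 45.6, 40.7 and 51.8 CPM with vehicle and 124, 106 and 134 CPM with TGFβ. The lowest TGFβ library was above the highest vehicle library. The log2 fold change was 1.40 (standard error 0.11, edgeR adjusted p = 6.78e-05). TWEAK, encoded by *Tnfsf12*, was at 21.2, 20.4 and 21.1 CPM with vehicle and 14.0, 14.5 and 14.9 CPM with TGFβ, with tight groups that did not overlap. Its log2 fold change was -0.53 (standard error 0.05, edgeR adjusted p = 0.000235). The ratio of *Tnfrsf12a* to *Tnfsf12* counts, chosen after the values were seen, was 2.15, 1.99 and 2.45 with vehicle and 8.84, 7.30 and 9.0 with TGFβ. *Tnfsf12* shares 48.1% of its 75-base windows with other transcripts, chiefly of the readthrough gene *Tnfsfm13*, which had 111 counts over the 6 libraries beside 3122 for *Tnfsf12*.

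**Figure D2:**
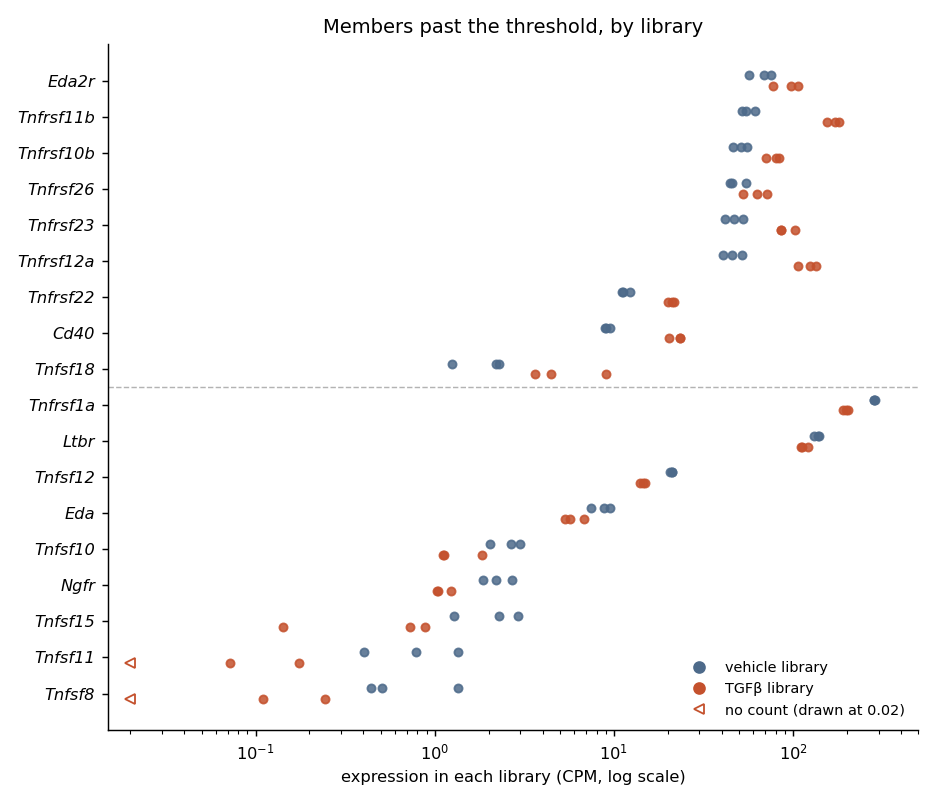
Expression in CPM (log axis) of the 18 members past the threshold in each vehicle and TGFβ library, with the 9 higher members above the dashed line, the 9 lower ones below it, and open triangles for libraries with no count. The groups are apart in every row but that of *Tnfrsf26*, and the 3 lowest rows hold ligands with under 3 CPM in any library.

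*Cd40*, a receptor known from B cells and antigen-presenting cells and also found on fibroblasts, was at 8.89, 9.51 and 9.02 CPM with vehicle and 20.4, 23.3 and 23.4 CPM with TGFβ. The groups did not overlap and replicates lay close together. The log2 fold change was 1.29 (standard error 0.08, edgeR adjusted p = 2.01e-05). Among the leukocyte markers, the macrophage genes *Csf1r* and *Adgre1* were present, *Csf1r* at 14.2 and 14.4 CPM and *Adgre1* at 13.4 and 14.9 CPM in the group means of vehicle and TGFβ, and *Cd79a* was at or near 0 in all libraries. The 7 leukocyte markers tested had a median log2 fold change of -0.13, with negative values in all but *Csf1r* and *Adgre1*. Only *Cd14* passed the threshold (log2 fold change -0.75, edgeR adjusted p = 0.0436). The summed level of the list overlapped between the groups, at 251 to 362 CPM with vehicle and 215 to 322 CPM with TGFβ. The part of leukocytes in the *Cd40* result was not tested.

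*Tnfsf18*, which encodes the GITR ligand, was the ligand that rose. It had 70, 37 and 68 counts with vehicle and 122, 101 and 256 with TGFβ. The groups did not overlap, but the TGFβ library of 28641986 counts was well above the other TGFβ libraries. The log2 fold change was 1.57 (standard error 0.38, edgeR adjusted p = 0.0130), and 1.07 without that library, with the call kept. Its receptor *Tnfrsf18* had 8 counts in the vehicle group and 6 in the TGFβ group. The TGFβ library of 28641986 counts also had the highest leukocyte and endothelial marker sums of its group, at 322 and 566 CPM. The part of either cell type in the *Tnfsf18* result was not tested.

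*Eda2r* and *Tnfrsf26* completed the list of higher receptors. *Eda2r*, a receptor of an ectodysplasin isoform, was at 75.4, 68.5 and 57.0 CPM with vehicle and 106, 97.4 and 77.2 CPM with TGFβ. Its groups were narrowly apart, and the log2 fold change of 0.48 (standard error 0.13, edgeR adjusted p = 0.0224) lost its call (edgeR adjusted p from 0.0541 to 0.0777) without the same libraries as *Tnfsf10*. The ectodysplasin gene itself, *Eda*, was at 8.83, 9.51 and 7.44 CPM with vehicle and 5.30, 6.84 and 5.72 CPM with TGFβ, without overlap. Its log2 fold change was -0.53 (standard error 0.13, edgeR adjusted p = 0.0144), and the adjusted p became 0.0534 when the vehicle library of 29296570 counts was dropped and 0.0515 when the TGFβ library of 27851677 counts was. *Tnfrsf26*, a receptor related to the TRAIL decoys, was at 45.8, 44.5 and 54.2 CPM with vehicle and 52.4, 62.6 and 71.7 CPM with TGFβ. These groups overlapped, and the log2 fold change of 0.37 (standard error 0.12, edgeR adjusted p = 0.0396) lost its call with upper quartile scaling (adjusted p = 0.0542). It also did so without either of the vehicle libraries of 31072338 and 29296570 counts or either of the TGFβ libraries of 28894151 and 28641986 counts (edgeR adjusted p from 0.101 to 0.121).

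**Figure D3:**
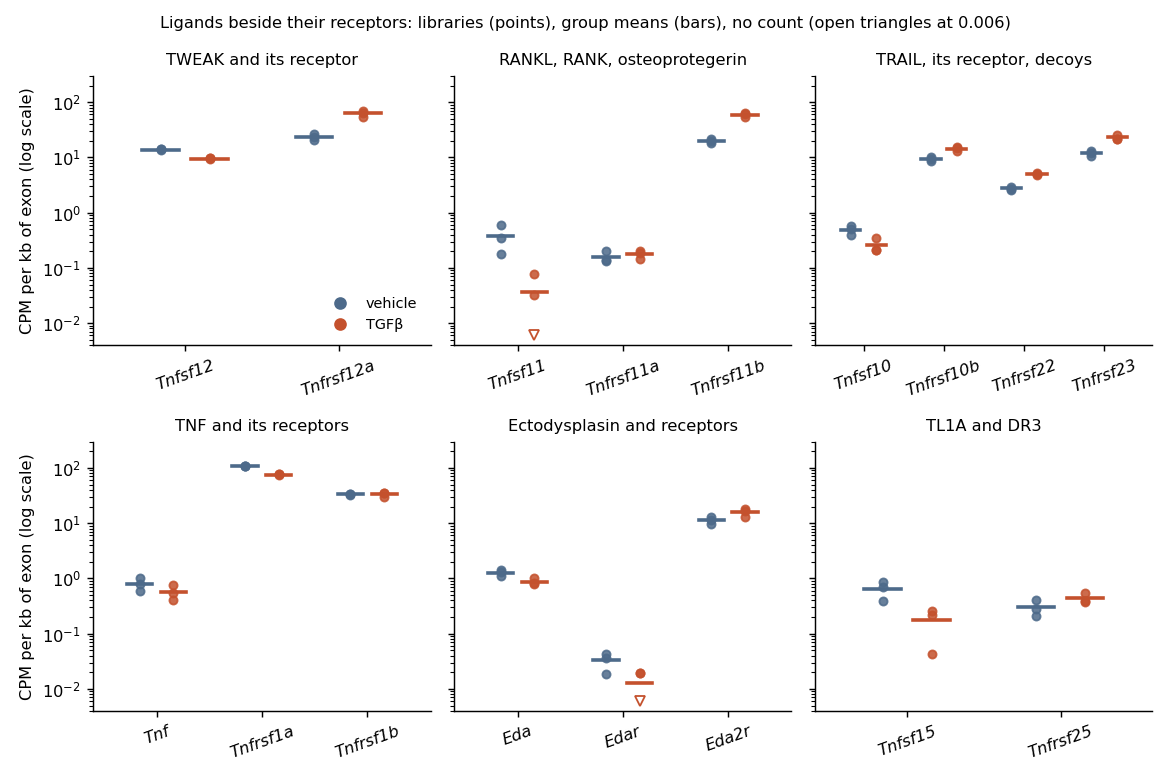
Expression per kb of exon (log axis) of ligands beside their receptors in each vehicle and TGFβ library, with bars for group means and open triangles for libraries with no count. *Tnfsf12*, *Tnfsf11*, *Tnfsf10*, *Eda* and *Tnfsf15* were lower with TGFβ, and *Tnfrsf12a*, *Tnfrsf11b*, *Tnfrsf10b*, *Tnfrsf22*, *Tnfrsf23* and *Eda2r* higher. The receptor *Tnfrsf1a* was also lower. *Tnf*, *Tnfrsf1b*, *Tnfrsf11a* and *Tnfrsf25* did not pass the threshold, and *Edar* was below the filter. *Tnfsf11* and *Tnfsf15* met the count filter by their vehicle libraries alone but not by their TGFβ libraries alone. *Tnfsf10*, *Tnfsf15*, *Eda* and *Eda2r* lost the call in some alternatives. Only chosen systems are shown. Left out are, among others, *Tnfsf18*, which was higher, and *Ltbr*, which was lower.

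TNFR1 and the lymphotoxin β receptor were lower with TGFβ. *Tnfrsf1a* encodes TNFR1, the death domain receptor that carries most inflammatory TNF signaling. It was at 283, 285 and 281 CPM with vehicle and 191, 198 and 202 CPM with TGFβ. The groups were widely apart beside their spread, with a log2 fold change of -0.52 (standard error 0.04, edgeR adjusted p = 6.22e-05). *Ltbr*, the lymphotoxin β receptor, which drives the non-canonical NF-κB pathway, was at 137, 139 and 129.9 CPM with vehicle and 110.0, 112 and 121 CPM with TGFβ. It also fell without overlap, by a smaller log2 fold change of -0.24 (standard error 0.05, edgeR adjusted p = 0.00725). *Tnfrsf1b*, which encodes TNFR2, the TNF receptor without a death domain, was at 122, 130.2 and 128 CPM with vehicle and 116, 133 and 132 CPM with TGFβ. Those groups overlapped, and the log2 fold change was -0.0024 (standard error 0.06, edgeR adjusted p = 0.979). The count ratio of *Tnfrsf1a* to *Tnfrsf1b*, chosen after the values were seen, was 2.31, 2.19 and 2.19 with vehicle and 1.65, 1.49 and 1.53 with TGFβ. *Tnf* itself was low, with 31, 39 and 49 counts with vehicle and 24, 19 and 36 with TGFβ. Its groups overlapped, with a log2 fold change of -0.47 (standard error 0.29, edgeR adjusted p = 0.235).

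*Ngfr* encodes the neurotrophin receptor p75, a death domain receptor abundant in Schwann cells and neurons. It had 70, 55 and 81 counts with vehicle and 28, 29 and 35 with TGFβ. All TGFβ libraries were below all vehicle libraries, with a log2 fold change of -1.04 (standard error 0.20, edgeR adjusted p = 0.00452). Schwann cell markers summed to 8.46 to 14.3 CPM with vehicle and 7.81 to 11.0 CPM with TGFβ, with none of the 4 tested past the threshold, and the defining gene *Sox10* was at 0.406 and 0.249 CPM. Their part in the *Ngfr* result was not tested.

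Among the ligands of low level that fell, *Tnfsf15* (TL1A, which binds the death domain receptor DR3) had 73, 38 and 87 counts with vehicle and 20, 4 and 25 with TGFβ. *Tnfsf8* (the CD30 ligand) had 14, 15 and 40 counts with vehicle and 3, 0 and 7 with TGFβ. Neither had overlapping groups, although the spread between replicates was wide. Both met the count filter by their vehicle libraries alone but not by their TGFβ libraries alone. *Tnfsf8* could be tested only because it was higher with vehicle. The log2 fold changes were -1.88 for *Tnfsf15* (standard error 0.50, edgeR adjusted p = 0.0196) and -2.63 for *Tnfsf8* (standard error 0.77, edgeR adjusted p = 0.0284). The call of *Tnfsf15* ended on leaving out the vehicle library of 29331999 counts (edgeR adjusted p = 0.0551) or the TGFβ library of 27851677 counts (edgeR adjusted p = 0.0510). That of *Tnfsf8* was lost without either of these or the TGFβ library of 28894151 counts (edgeR adjusted p from 0.0677 to 0.0894). Its log2 fold change ranged from -1.95 without the vehicle library of 29331999 counts to -3.71 without the TGFβ library of 28641986 counts. Their receptors showed no call. *Tnfrsf25*, encoding DR3, had 30, 19 and 14 counts with vehicle and 34, 25 and 24 with TGFβ (log2 fold change 0.53, edgeR adjusted p = 0.200), and *Tnfrsf8*, encoding CD30, had 29, 33 and 39 against 20, 12 and 30 (log2 fold change -0.58, edgeR adjusted p = 0.185). The leukocyte markers named above were 251 to 362 CPM with vehicle and 215 to 322 CPM with TGFβ. The endothelial markers were 446 to 692 CPM with vehicle and 409 to 566 CPM with TGFβ. The part of either cell type in the levels of these ligands was not tested.

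In *Tnfsf13b* and *Tnfrsf14* the groups were apart although the threshold was missed. *Tnfsf13b*, encoding the B cell survival factor BAFF, had 78, 80 and 118 counts with vehicle and 27, 40 and 68 with TGFβ. The groups did not overlap, and the log2 fold change was -0.91 (standard error 0.32, edgeR adjusted p = 0.0556). It was called with DESeq2 (adjusted p = 0.0262), with limma-voom (adjusted p = 0.0451), with edgeR on unfiltered counts (adjusted p = 0.0316) and with edgeR without the TGFβ library of 28641986 counts (adjusted p = 0.0118). *Tnfrsf14*, encoding HVEM, the receptor of LIGHT, had 121, 120 and 112 counts with vehicle and 96, 79 and 78 with TGFβ, again without overlap. Its log2 fold change was -0.35 (standard error 0.13, edgeR adjusted p = 0.0692), and the adjusted p was 0.0348 without the TGFβ library of 27851677 counts.

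The other members tested had groups that overlapped. *Fas*, the death receptor for FasL, had means of 42.0 ± 2.94 (vehicle) and 44.9 ± 1.80 CPM (TGFβ; SD, n = 3), a log2 fold change of 0.09 (standard error 0.06, edgeR adjusted p = 0.253). *Tnfrsf21*, which encodes the death receptor DR6, was at 5.30 ± 1.96 and 4.91 ± 0.491 CPM (SD, n = 3), with a log2 fold change of -0.11 (standard error 0.24, edgeR adjusted p = 0.757). *Tnfsf9*, the ligand of the costimulatory receptor *Tnfrsf9*, was at 3.58 ± 0.260 and 3.55 ± 0.768 CPM (SD, n = 3), with a log2 fold change of -0.01 (standard error 0.17, edgeR adjusted p = 0.963), and its exons overlap the antisense gene *Gm11110*. *Tnfsf13*, encoding APRIL, was at 0.786 ± 0.128 and 0.491 ± 0.189 CPM (SD, n = 3), with a log2 fold change of -0.68 (standard error 0.32, edgeR adjusted p = 0.125), and 49.3% of its 75-base windows occur in other transcripts. A p that misses the threshold does not show that these levels were equal.

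The 12 members below the count filter had at most 22 counts in any library, and several of them are known chiefly from lymphocytes. They comprised the ligands *Lta*, *Ltb*, *Tnfsf4* and *Tnfsf14* and the receptors *Cd27*, *Edar*, *Tnfrsf4*, *Tnfrsf9*, *Tnfrsf13b*, *Tnfrsf13c*, *Tnfrsf18* and *Tnfrsf19*. *Tnfsf4*, encoding the OX40 ligand, had 4, 3 and 3 counts with vehicle and 6, 6 and 9 with TGFβ. It was the only one of the 12 whose groups did not overlap, and its adjusted p was 0.125 with edgeR on unfiltered counts. *Tnfrsf9* had the most counts, 27 with vehicle and 34 with TGFβ, and *Tnfrsf13c*, encoding the BAFF receptor, the fewest, with 1 in each group. *Ltb*, which forms the ligand of *Ltbr* together with *Lta*, had 21 and 11 counts, and *Lta* had 6 and 3. None of the 12 was called by edgeR on unfiltered counts, and 1 of them, *Tnfsf4*, passed a threshold of 0.05 before adjustment.

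Levels were compared between genes per kb of exon. In vehicle libraries the order was *Tnfrsf1a* at 109 ± 0.656 CPM per kb (SD, n = 3, as for the values that follow), *Ltbr* at 57.4 ± 2.01, *Tnfrsf1b* at 33.3 ± 1.05 and *Tnfrsf12a* at 23.8 ± 2.88. With TGFβ, *Tnfrsf1a* was still the highest, at 76.0 ± 2.16 CPM per kb. *Tnfrsf12a* at 62.8 ± 7.33 CPM per kb and *Tnfrsf11b* at 59.7 ± 4.56 CPM per kb were next, with a difference between them smaller than their spread. *Ltbr* at 48.6 ± 2.57 CPM per kb and *Tnfrsf1b* at 33.2 ± 2.47 CPM per kb came after them. *Tnfrsf11b* had been at 19.9 ± 1.76 CPM per kb with vehicle, where it and *Fas* at 20.4 ± 1.43 CPM per kb differed by less than their spread. The ligand of highest level was *Tnfsf12*, at 13.8 ± 0.269 CPM per kb with vehicle and 9.55 ± 0.276 CPM per kb with TGFβ, and no other ligand exceeded 3 CPM per kb in either group mean. *Tnfsf12* and *Tnfsf13* share 48.3% and 60.0% of their exon length with *Tnfsfm13* on the same strand. The counting tool is not given, so the levels per kb of both ligands are uncertain beyond the spread shown.

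Members that lie within 200 kb of one another formed 9 groups with 21 members. On chromosome 7 (143607659 to 143685872, GRCm38), *Tnfrsf26*, *Tnfrsf22* and *Tnfrsf23* lie side by side on the minus strand, and all 3 were higher with TGFβ. Of these, *Tnfrsf26* had overlapping groups and lost its call in some alternatives. *Tnfrsf22* and *Tnfrsf23* share 21.2% and 16.1% of their 75-base windows with other transcripts, chiefly each other's, and are uncertain as separate values. On chromosome 6, *Ltbr* (125306571 to 125313885) and *Tnfrsf1a* (125349362 to 125362484) are neighbors on opposite strands and both were lower, while *Cd27* beside them was below the filter. On chromosome 4, *Tnfsf15* (63727084 to 63745113) and *Tnfsf8* (63831308 to 63861347) are neighbors on the minus strand and both were lower. Each met the count filter by its vehicle libraries alone but not by its TGFβ libraries alone. Both lost the call when some single libraries were left out. In the other groups neighbors did not share a call. *Tnfsf18* (161494655 to 161505290 on chromosome 1) was higher and its neighbor *Tnfsf4* below the filter, and *Tnfsf12* was lower beside *Tnfsf13*, which did not pass the threshold. *Tnfrsf1b* and *Tnfrsf8* lie together and neither passed, *Tnf* did not pass and its neighbors *Ltb* and *Lta* were below the filter, and *Tnfsf9* did not pass beside *Tnfsf14* below the filter. *Tnfrsf4* and *Tnfrsf18* were both below the filter.

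Promoter sequences were searched for letters that SMAD and AP-1 factors, which act in TGFβ responses, and NF-κB are known to bind. The 250 bases before the RefSeq start (GRCm38.p6) are shown, 5′ to 3′ on the gene's strand. They are given for the TWEAK receptor, which rose (chr17:23677450-23677699, minus strand), and the GITR ligand, the ligand that rose (chr1:161494407-161494656, plus strand). They are also given for RANKL, whose fall was the largest among the members tested (chr14:78308044-78308293, minus strand). RANKL could be tested only because it was higher with vehicle, and its fall rests on 77 counts against 7. Capitals mark a CAGA box, AGCCAGAC, read on either strand.
Tnfrsf12a: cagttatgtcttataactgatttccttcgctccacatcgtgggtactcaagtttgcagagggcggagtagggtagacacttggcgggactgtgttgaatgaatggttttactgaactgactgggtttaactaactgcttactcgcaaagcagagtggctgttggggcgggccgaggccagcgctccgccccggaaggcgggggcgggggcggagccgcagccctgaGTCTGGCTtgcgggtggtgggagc
Tnfsf18: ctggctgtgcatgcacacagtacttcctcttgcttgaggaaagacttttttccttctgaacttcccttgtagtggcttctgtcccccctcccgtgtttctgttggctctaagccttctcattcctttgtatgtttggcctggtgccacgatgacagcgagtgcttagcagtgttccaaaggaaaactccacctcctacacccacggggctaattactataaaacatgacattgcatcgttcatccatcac
Tnfsf11: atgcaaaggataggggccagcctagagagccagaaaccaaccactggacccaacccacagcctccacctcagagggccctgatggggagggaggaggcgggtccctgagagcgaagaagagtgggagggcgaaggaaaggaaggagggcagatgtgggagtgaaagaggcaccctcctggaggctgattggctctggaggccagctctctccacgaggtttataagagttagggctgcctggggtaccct

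In *Tnfrsf12a* the box lies on the opposite strand, as GTCTGGCT, from -24 to -17 bases of the start. Windows of 300 bases, 250 before to 50 after the start, were found for 33 of the 41 members, and 8 members including *Tnfrsf11b* and *Cd40* have none here. The CAGA box was present in 1 member (3.03%) and in 1.49% of all genes with a window. The SMAD palindrome GTCTAGAC was present in none of the 33 and in 0.248% of all genes. The AP-1 letters TGANTCA were present in 6 members (18.2%) and 8.97% of all genes, and the κB motif in 4 members (12.1%) and 9.55% of all genes. Both strands were searched for each motif. Of the 12 members past the threshold with a window, 1 held any of these letters, *Tnfrsf12a*. A match is a description of letters, not a site of binding.

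Genes that act with the receptors or downstream of them were grouped by function, and their counts stand beside 20.5% higher and 20.1% lower over all genes tested. These lists were chosen with earlier results of these data known, so the counts describe the lists and test nothing. In the shedding list, genes that act in the release of ligands and receptors, 4 of 6 genes tested were higher and 1 lower, with a median log2 fold change of 0.23. *Timp3*, an inhibitor of the TNF-releasing protease ADAM17, rose by 0.86 on the log2 scale (edgeR adjusted p = 0.00184) and *Furin* by 0.49 (adjusted p = 0.000453, edgeR). *Adam17* itself fell by 0.50 (edgeR adjusted p = 0.000531), while the related protease gene *Adam10* rose by 0.23 (edgeR adjusted p = 0.0160).

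Of 22 adaptor and ubiquitin enzyme genes tested, 2 were higher and 8 lower, with a median of -0.08. The 4 largest changes were falls in *Birc2*, which encodes the ubiquitin ligase cIAP1 (log2 fold change -1.09, edgeR adjusted p = 1.36e-05), *Birc3*, encoding cIAP2 (-0.84, edgeR adjusted p = 0.000482), *Tnip1* (-0.74, edgeR adjusted p = 0.000966) and *Tnfaip3*, encoding A20 (-0.65, edgeR adjusted p = 0.000463). *Tnip1* and *Tnfaip3* are negative regulators of NF-κB signaling. In the death signaling list, 2 of 10 were higher and 4 lower, with a median of -0.05. The kinase gene *Ripk3* rose by 0.71 on the log2 scale (edgeR adjusted p = 0.000708), and the initiator caspase gene *Casp9* fell by 0.32 (edgeR adjusted p = 0.00842). The caspase inhibitor gene *Xiap* fell by 0.20 (edgeR adjusted p = 0.00309).

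In the NF-κB arm, 1 of 12 genes was higher and 8 lower, with a median of -0.29. The inhibitor genes *Nfkbia* and *Nfkbie* fell by 1.16 and 1.03 on the log2 scale (edgeR adjusted p = 0.000205 and 0.000369), and the subunit genes *Relb* and *Nfkb1* by 0.71 and 0.35 (edgeR adjusted p = 0.00131 and 0.00116). Inducible targets, genes that TNF is known to induce, though not all of them in fibroblasts, held 16 lower genes of 23 tested, with 4 higher and a median of -1.08. Their summed level was 4774 to 6178 CPM with vehicle and 2513 to 3078 CPM with TGFβ, without overlap. In vehicle and TGFβ means, *Csf1* was at 1035 and 1018 CPM, *Mmp3* at 870 and 338, and *Vcam1* at 825 and 430. These had the highest vehicle levels of the list. *Csf1* did not pass the threshold, while *Mmp3* and *Vcam1* were lower. The neutrophil chemokine genes *Cxcl5*, *Cxcl2* and *Cxcl1* had log2 fold changes of -3.23, -2.68 and -2.57 (edgeR adjusted p = 3.69e-05, 0.00382 and 8.73e-06). *Ptgs2*, encoding the prostaglandin-forming enzyme COX-2, went the other way, with a log2 fold change of 2.55 (edgeR adjusted p = 0.000525).

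**Figure D4:**
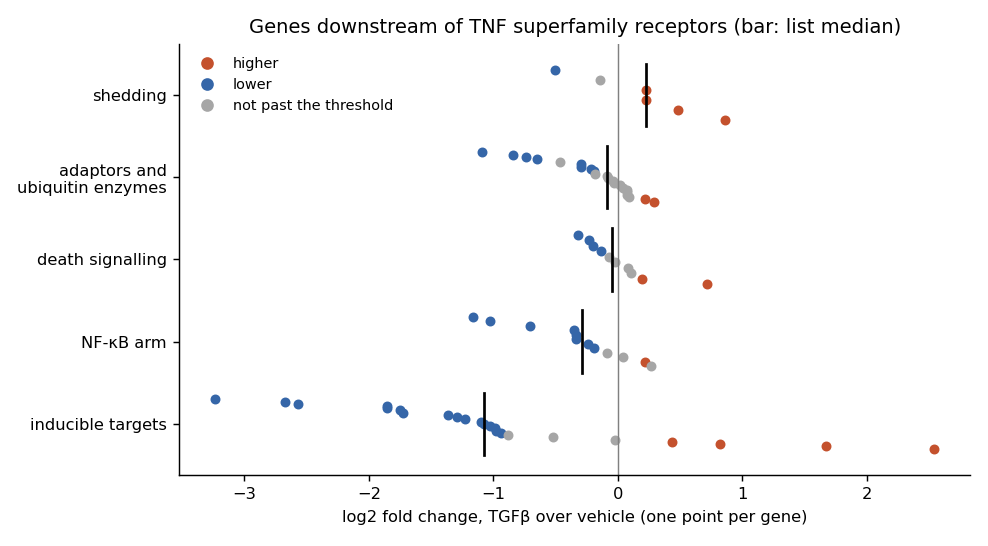
Log2 fold change of TGFβ over vehicle (horizontal axis) for 5 lists of genes that act with the receptors or downstream of them. Vertical bars mark list medians, and colors mark genes higher, lower or not past the threshold. Inducible targets have a median of -1.08 and 16 genes marked as lower, beside -0.08 for adaptors and ubiquitin enzymes. The lists were chosen with earlier results of these data known.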

How the data were processed

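RNA of 3 vehicle and 3 TGFβ samples was sequenced by the authors from stranded poly(A) libraries with single-end reads of 75 bases, and the submitters' processing notes name mm10 and DESeq2. The aligner, the counting tool, the annotation and the use of strand are not given in the sources used here. The authors deposited counts per gene and library, as whole numbers without normalization, beside columns of their own comparison (a normalized mean, a log2 fold change with its error and statistic, and p-values), which were not used. The labels do not say whether replicates came from separate hearts or cultures, although the paper's methods call them biological replicates, and p-values may then measure only the spread between these samples. Replicates differed by more than sampling noise (chi-square divided by genes, 7.95 to 27.1 for pairs within a group).

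The counts were analysed with edgeR 4.0.16 in R 4.3.3 (TMM scaling, filterByExpr with a minimum count of 10, quasi-likelihood test, Benjamini-Hochberg adjustment over the 14334 genes kept of 25140, threshold 0.05, no covariate). Intervals and floors of counts were not needed, since totals of 27851677 to 31072338 per library leave counting error small except for members with few counts, whose counts are given. CPM uses TMM-scaled library sizes, and CPM per kb divides it by the length of the union of exons (GENCODE M21, GRCm38). The biological coefficient of variation was 7.97%. The steps were tested on simulated data with changes placed only in genes of higher counts, so members with few counts are not covered. A two-sided exact permutation test of CPM cannot go below p = 0.1 with 3 libraries against 3, so it is not quoted for each gene. As alternatives, median-of-ratios or upper quartile scaling replaced TMM, DESeq2 1.42.0 or limma-voom (limma 3.58.1) replaced edgeR, and the filter was dropped or set at 1 CPM in 3 libraries. Single libraries were left out, and calls were also counted at an adjusted p of 0.01 and beyond 1 on the log2 scale.

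All members past the threshold are given by library, and the other members by range, group mean or count. Of each list of genes acting with the receptors or downstream of them, the 4 genes past the threshold with the largest absolute log2 fold change are given. Of the inducible targets, the genes of highest level are named as well. Some results that these rules take in are not reported here. The members, the lists and these rules were chosen with earlier results of these data known.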

Additional observations from a re-analysis of the deposited data

How the results depend on the processing

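Of the 18 members past the threshold, 12 kept direction and call in every alternative that tested them (the filter of 1 CPM in 3 libraries removed *Tnfsf8* and *Tnfsf11*), 6 (*Eda*, *Eda2r*, *Tnfrsf26*, *Tnfsf8*, *Tnfsf10* and *Tnfsf15*) lost the call in at least 1, and none changed sign. Over the 2 other scalings, the 2 other tools and the 2 other filters, 16 to 19 members passed, and 14 to 18 when single libraries were left out. An adjusted p of 0.01 left 3595 genes, 11 members and 3 death signaling genes. A log2 fold change beyond 1 left 971 genes, 8 members, 1 adaptor gene, 2 genes of the NF-κB arm and 0 in the shedding and death signaling lists. All genes called ranged from 4489 to 5481 with each library left out.

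Members near no change turned sign. *Tnfrsf1b* had a log2 fold change of 0.0024 without the filter. With single libraries left out, *Tnfrsf1b* ranged from -0.039 to 0.057, *Tnfrsf21* from -0.30 to 0.23 and *Tnfsf9* from -0.21 to 0.10. The cause was not tested. No paired analysis was possible because the columns of the table carry no replicate number. Depth limits the ligands under 1 CPM and the members below the filter.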
